A study of Bos taurus and Bos grunniens and Bubalus bubalis with 15 samples.

Results

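Collagen is secreted as a procollagen, trimmed, cross-linked into fibrils and later broken down, and 7 genes of this cycle were measured here in bovid muscle. The set was chosen by gene symbol: MMP2, CTSK, PCOLCE, TIMP1, TIMP2, TIMP3 and LOX, each with every probe set of the bovine Affymetrix array that carries its symbol. They made up 7 of the 9155 genes with a probe set of 1 symbol, and 11 of 24016 probe sets. MMP2 (Bt.5313.1.S1_at), CTSK (Bt.23218.1.S1_at), TIMP3 (Bt.5136.1.S1_at) and LOX (Bt.8948.1.S1_at) had 1 probe set each. PCOLCE was read by probe sets A (Bt.7955.2.S1_at) and B (Bt.7955.1.S1_at), and TIMP1 by A (Bt.632.1.S1_s_at) and B (Bt.632.1.S1_at). TIMP2 was read by A (Bt.14176.1.S1_at), B (Bt.435.1.S1_at) and C (Bt.14176.2.S1_at).

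Total RNA of the longissimus dorsi, a long back muscle, was hybridised on 15 arrays, all from animals aged 36 months. There were 5 groups of 3 biological replicates: water buffalo from Guangxi, yak from Qinghai, and female, castrated male and intact male Qinchuan cattle. The cattle were of 1 breed and similar genetic background, close in birth date and reared alike, and the study compared muscle gene expression between the sexes of cattle and between the 3 species. Not given in the sources used here were the age at castration and the sex of the yak and buffalo. The probes hold cattle sequence, so that the level of a transcript and its match to the probes cannot be told apart in any comparison with yak or buffalo.

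As background, gelatinase A (MMP2) cleaves denatured and basement membrane collagen, and cathepsin K (CTSK) is a lysosomal cysteine protease that cuts triple-helical collagen and is best known from osteoclasts. Procollagen C-endopeptidase enhancer (PCOLCE) speeds the removal of the procollagen tail, and lysyl oxidase (LOX) starts the cross-links that make fibrils insoluble. The tissue inhibitors of metalloproteinases (TIMP1, TIMP2 and TIMP3) bind the active site of the MMPs. TIMP2 also takes part in the activation of pro-MMP2 at the cell surface, and TIMP3 is held in the matrix. In muscle these genes are known mainly from connective tissue cells between the fibres, and CTSK and TIMP1 also from activated macrophages.

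An array gives intensities rather than reads, so precision here rests on 3 arrays a group, and the table holds no detection calls. All log2 values below are log2(intensity + 16), on which the 15 arrays had medians of 6.71 to 6.81. Summed intensities of the 9 skeletal muscle fibre markers tested lay between 106007 and 131361 over the 15 arrays. Actin probe sets at the 3' and 5' ends of the transcript, whose ratio grows as RNA is degraded, gave ratios of 1.42 to 1.73 in buffalo, 1.49 to 1.93 in yak, 1.22 to 1.33 in females, 1.24 to 1.27 in castrated males and 1.17 to 1.48 in intact males, the highest of these being intact male 1. A probe set was tested where its mean log2 value lay above the 40th percentile of all, and "passed" means a limma adjusted p under 0.05 over all 14409 probe sets tested. All 11 probe sets of the 7 genes were tested. LOX was so only through the intact males: its mean was 6.51 over all 15 arrays and 6.37 without the intact males, and the filter lay at 6.42.

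PCOLCE and MMP2 transcripts were lower in castrated than in intact cattle muscle. PCOLCE was 3.10-fold lower on probe set A and 3.05-fold on B, and MMP2 2.39-fold lower. Neither TIMP2 nor TIMP3 passed on any probe set. CTSK (4.51-fold lower) and TIMP1 (3.38-fold lower on probe set A and 3.56-fold on B) had the largest differences of the set but did not pass. In females, MMP2, CTSK, PCOLCE and TIMP1 were all lower than in intact males. LOX, 1.58-fold lower in castrated and 1.65-fold lower in female cattle, also passed in both comparisons, but is set apart in the counts because it was tested only through its level in intact males. Of the 10 other probe sets, 3 passed as lower and 0 as higher in castrated against intact males, where 0.84% of all probe sets tested passed as lower and 0.625% as higher. In females against intact males 6 of the 10 passed as lower and 0 as higher, where 3.37% and 2.12% of all did. The median log2 fold change of the 10 was -1.44 in castrated and -1.55 in female cattle, against -0.00013 and 0.0079 over all probe sets. In both comparisons 8 of the 10 had no overlap between the groups, all of them lower than in intact males, where 13.5% of all probe sets tested did so in castrated and 17.4% in female cattle. With LOX counted, 4 and 7 of 11 passed, and with 1 array left out these counts ranged from 0 (without intact male 2 or castrated male 3) to 8 (without intact male 3) and from 1 (without female 2 or 3) to 9. The comparisons share the 3 intact male arrays, and the count without LOX was chosen after the values were seen. The members and the gene lists used below were chosen with earlier results of these data known. Their excess over the shares of all probe sets is therefore no independent test of the set.

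**Figure D1:**
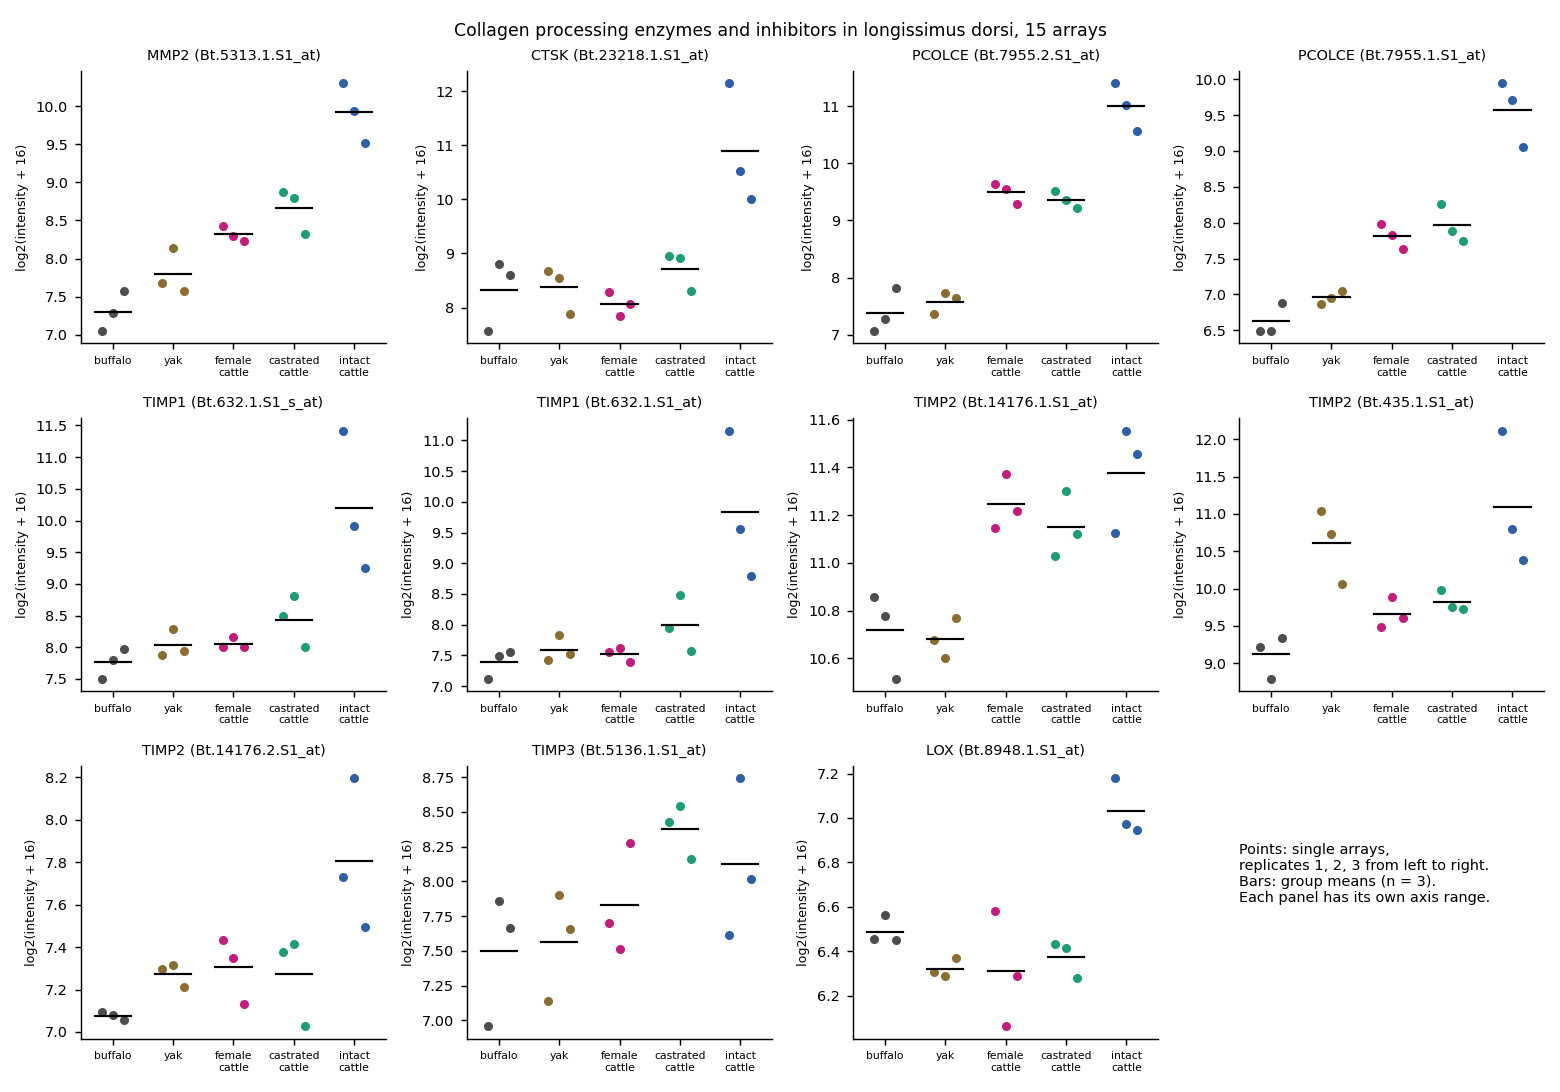
Values of the 11 probe sets on all 15 arrays, as log2(intensity + 16), with 1 panel per probe set and its own axis range. Points are arrays, in the order of replicates 1 to 3, and bars are means of 3. For MMP2, CTSK, PCOLCE, TIMP1 and LOX every intact male lies above every other cattle array, whereas for TIMP3 and for TIMP2 on Bt.14176.1.S1_at the cattle groups overlap.

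MMP2 had intensities of 452, 426 and 304 in castrated males and 329, 299 and 283 in females, against 1246, 967 and 714 in intact males. No castrated male or female reached the lowest intact male. Its mean was 394 ± 79.1 in castrated males, 304 ± 23.4 in females and 976 ± 266 in intact males (SD, n = 3 each). The log2 fold change was -1.26 (SE 0.22, adjusted p = 0.0348) in castrated against intact males and -1.60 (SE 0.22, adjusted p = 0.011) in females against intact males. The first call held without intact male 1 (adjusted p = 0.0455) or 3 (0.0105) and was lost without any 1 of the other 7 cattle arrays, with adjusted p between 0.0536 and 0.116. The second was lost without female 2 or female 3, at 0.0507 each time.

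CTSK had intensities of 478, 465 and 299 in castrated males and 296, 213 and 252 in females, against 4523, 1464 and 1008 in intact males. Intact male 1 stood far above intact males 2 and 3, and even the lowest intact male stood above all 6 others. The means were 414 ± 99.6 in castrated males, 254 ± 41.1 in females and 2331 ± 1911 in intact males (SD, n = 3 each). Females were 7.10-fold lower than intact males, with a log2 fold change of -2.83 (SE 0.47, adjusted p = 0.0187). Castrated males were 4.51-fold lower, but this did not pass (log2 fold change -2.17, 95% confidence interval -3.23 to -1.12, adjusted p = 0.0585). Without intact male 1 the castrated difference was smaller, at -1.55, and passed (adjusted p = 0.0267), as it did without intact male 3 (-2.62, adjusted p = 0.0169) and when all 15 arrays shared the spread (adjusted p = 0.0195). The female difference was -2.20 without intact male 1 (adjusted p = 0.0048), and its call was lost without intact male 2, female 2 or female 3, with adjusted p between 0.0573 and 0.0765.

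PCOLCE was read by a pair of probe sets that gave much the same differences. Probe set A had intensities of 713, 642 and 579 in castrated males and 780.2, 736 and 611 in females, against 2689.8, 2045 and 1505 in intact males. Probe set B had 291, 220.4 and 199 in castrated males and 236, 211 and 183 in females, against 971, 826 and 515 in intact males. On both, the dimmest intact male exceeded the brightest of the other 6 cattle. Against intact males the log2 fold change on probe set A was -1.63 (SE 0.21, adjusted p = 0.0107) in castrated males and -1.50 (SE 0.21, adjusted p = 0.0116) in females. On probe set B it was -1.61 (SE 0.24, adjusted p = 0.0173) in castrated males and -1.76 (SE 0.24, adjusted p = 0.0106) in females. The castrated calls of both probe sets were lost without intact male 2 or castrated male 3, and that of B also without castrated male 2 (adjusted p 0.051 to 0.0772). The female call on A was lost without female 2 or 3 (0.0507 and 0.0538), and that on B held without any 1 of the 9 cattle arrays.

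LOX lay near the filter, at the 42.4th percentile of all probe sets, with intensities of 70.4, 69.2 and 61.8 in castrated males and 79.8, 50.8 and 62.1 in females, against 129, 109.7 and 107 in intact males. The intact males lay close together and above all other cattle. The log2 fold change was -0.66 (SE 0.13, adjusted p = 0.0491) in castrated and -0.72 (SE 0.13, adjusted p = 0.0245) in female against intact males. The castrated call stood just inside the threshold: 5 of 8 other settings ended it, with adjusted p between 0.0517 and 0.0633, and so did leaving out any 1 of 6 arrays (intact male 1 or 2, any castrated male, or female 3), between 0.0849 and 0.155. The female call was lost without intact male 2, female 2 or female 3 (0.0661 to 0.0862). As LOX entered the test only through its level in intact males, it had to be higher there to be tested at all. Without any filter the castrated difference did not pass (adjusted p = 0.0578), whereas the female difference did (adjusted p = 0.0288).

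**Figure D2:**
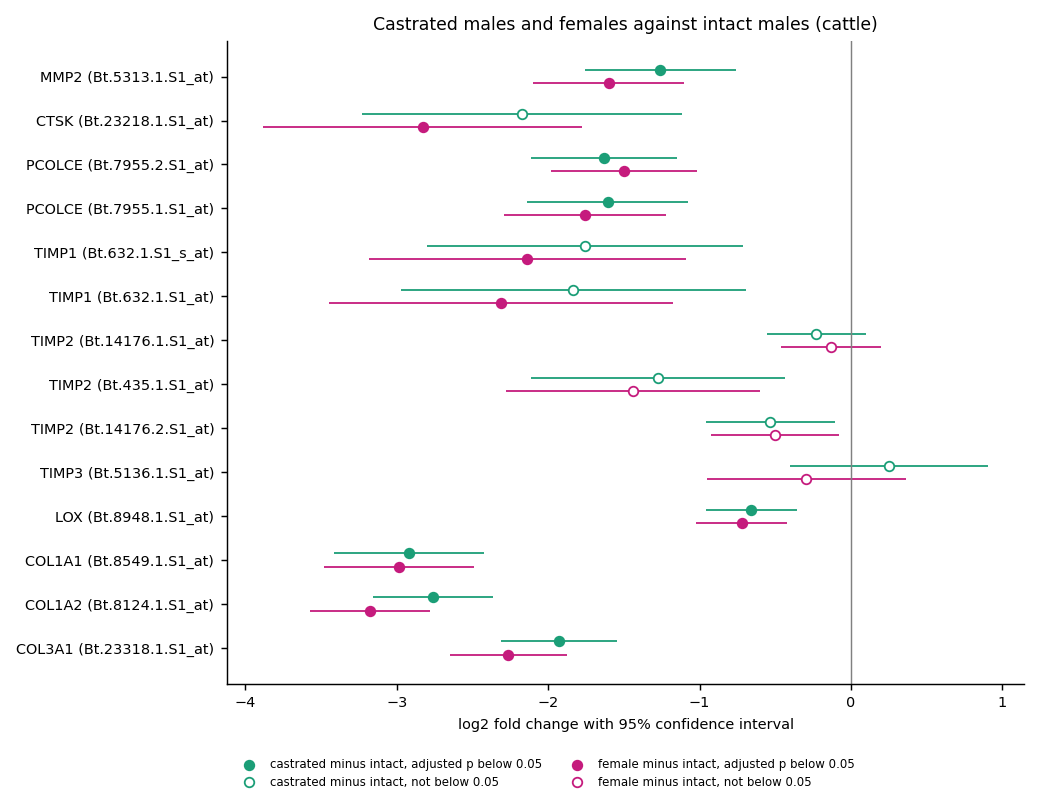
Log2 fold changes of castrated males and of females against intact males for the 11 probe sets and 3 collagen chains, from the fit on 9 cattle arrays. Points are estimates and lines 95% confidence intervals, and filled points passed (adjusted p under 0.05). PCOLCE, MMP2 and LOX are filled in both comparisons and CTSK and TIMP1 in females only, and the points of COL1A1 and COL1A2 lie furthest from 0.

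Among the inhibitors, TIMP1 had the largest differences from intact males. Probe set A had intensities of 344, 431 and 241 in castrated males and 242, 269 and 239.8 in females, against 2724, 948 and 590.0 in intact males. Probe set B had 232, 343 and 173 in castrated males and 172, 181 and 152 in females, against 2274, 737 and 426 in intact males. Intact male 1 stood far above the other intact males, which in turn stood above all castrated males and females. Females were lower than intact males by 2.14 on the log2 scale on probe set A (log2 fold change -2.14, SE 0.46, adjusted p = 0.0365) and by more on B (-2.31, SE 0.50, adjusted p = 0.0368). Castrated males differed by -1.76 on A (95% confidence interval -2.80 to -0.71, adjusted p = 0.0953) and -1.83 on B (-2.97 to -0.70, adjusted p = 0.105), which did not pass. Without intact male 1 these castrated differences were smaller, at -1.14 on A (adjusted p = 0.0747) and -1.17 on B (adjusted p = 0.0924). They passed without intact male 3 (adjusted p = 0.0216 on A and 0.0236 on B) and when all 15 arrays shared the spread (adjusted p = 0.0243 on A and 0.0289 on B). Both female calls held without intact male 1 (-1.52 on A, adjusted p = 0.0212, and -1.65 on B, adjusted p = 0.024) or intact male 3, and were lost without any 1 of the other 7 cattle arrays (adjusted p 0.0544 to 0.114).

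The 3 probe sets of TIMP2 disagreed. Probe set A had intensities of 2072, 2505 and 2209 in castrated males and 2248, 2638 and 2365 in females, against 2215, 2991 and 2797 in intact males, with overlap between all cattle groups. Its log2 fold change was -0.23 (95% confidence interval -0.56 to 0.10, adjusted p = 0.401) in castrated males and -0.13 (-0.46 to 0.20, adjusted p = 0.583) in females against intact males. Probe set B had 998, 846 and 833 in castrated males and 699.8, 927 and 763 in females, against 4421, 1768 and 1316 in intact males. There, as for CTSK and TIMP1, intact male 1 stood far above intact males 2 and 3, and these above all 6 others. Its differences were -1.28 (SE 0.37, adjusted p = 0.117) in castrated males and -1.44 (SE 0.37, adjusted p = 0.0559) in females. Neither passed on the 9 cattle arrays, although the female difference did when all 15 arrays shared the spread (adjusted p = 0.0211). Without intact male 3 both passed (adjusted p = 0.0307 and 0.0139). Without intact male 1 they were smaller, at -0.77 in castrated males (adjusted p = 0.0856) and -0.93 in females (adjusted p = 0.0337). Probe set C had 150.2, 155 and 114 in castrated males and 157, 147 and 124 in females, against 196, 277 and 164 in intact males. No castrated male or female reached the lowest intact male, and the differences of -0.53 (SE 0.19, adjusted p = 0.165) and -0.50 (SE 0.19, adjusted p = 0.126) did not pass, although the female difference did without intact male 3 (adjusted p = 0.046).

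**Figure D3:**
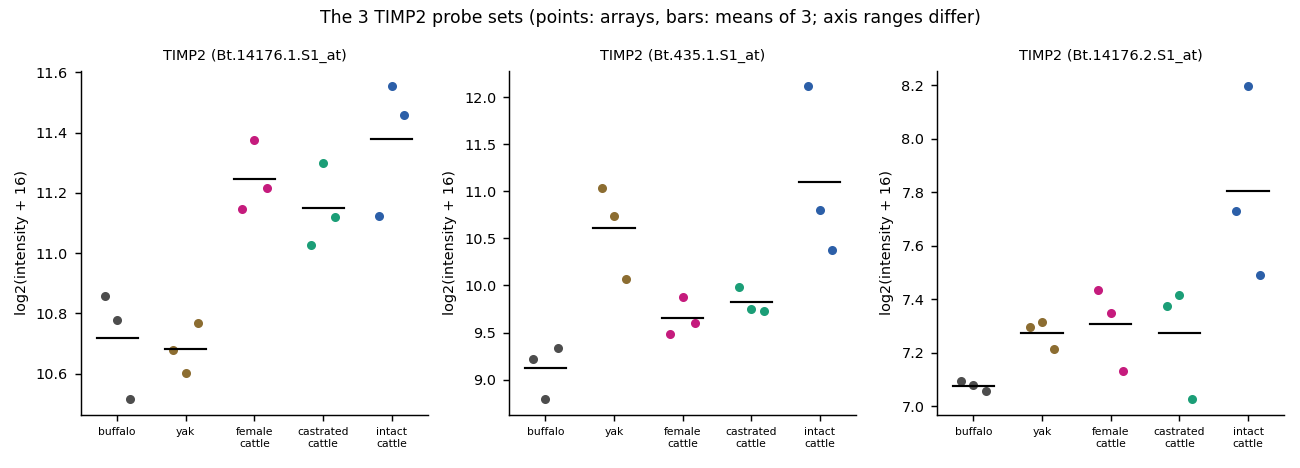
The 3 probe sets of TIMP2 on all 15 arrays, as log2(intensity + 16), with separate axis ranges. Points are arrays and bars means of 3. On Bt.14176.1.S1_at the 3 cattle groups overlap and lie above yak and buffalo, whereas on Bt.435.1.S1_at yak lie above castrated and female cattle and intact male 1 is the brightest array.

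The probe sets of TIMP2 also differed in how they stood to each other within an array. The log2 value of A minus that of B lay between 1.04 and 1.55 in castrated males and between 1.49 and 1.66 in females, against -0.99, 0.75 and 1.08 in intact males 1, 2 and 3. Probe sets have scales of their own, so only the change of this difference between arrays can be read, and it was lowest by far in intact male 1. The files do not show which transcript or part of the gene each probe set reads, so that the TIMP2 values hold per probe set only. For TIMP1 the same within-array difference, A minus B, lay between 0.26 and 0.61 over all cattle arrays.

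TIMP3 did not follow the other genes. It had intensities of 328, 357 and 271 in castrated males and 192, 167 and 294 in females, against 180.0, 412 and 243 in intact males. The 3 groups overlapped, and intact male 1, the brightest array for CTSK and TIMP1, was the dimmest intact male here. The log2 fold change was 0.25 (95% confidence interval -0.40 to 0.91, adjusted p = 0.656) in castrated males and -0.29 (-0.95 to 0.36, adjusted p = 0.537) in females against intact males.

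No probe set passed between females and castrated males. Of the 11, 0 passed in limma's test and 0 were at an unadjusted p under 0.05, where 0.0208% of all probe sets passed and 7.55% had such an unadjusted p. Females had CTSK intensities of 296, 213 and 252, against 478, 465 and 299 in castrated males. These groups did not overlap, a pattern that 8.56% of all probe sets showed in the same direction, but the log2 fold change was -0.66 with a 95% confidence interval of -1.71 to 0.40. For MMP2 it was -0.34 (-0.84 to 0.16), for PCOLCE probe set A 0.13 (-0.35 to 0.61) and for LOX -0.07 (-0.36 to 0.23). Among the inhibitors it was -0.38 on TIMP1 probe set A (-1.43 to 0.66), 0.10 on TIMP2 probe set A (-0.23 to 0.42) and -0.55 for TIMP3 (-1.20 to 0.11). The intervals leave room for 2-fold differences of CTSK, TIMP1 and TIMP3, and not of MMP2, PCOLCE, LOX or TIMP2 on probe set A.

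The genes fell into separate groups by how the single intact males compared with the mean of the 6 castrated and female cattle. Log2 differences of intact males 1, 2 and 3 were 3.76, 2.14 and 1.61 for CTSK, 3.18, 1.67 and 1.00 for TIMP1 on probe set A, and 2.38, 1.06 and 0.64 for TIMP2 on probe set B. Intact male 1 led by more than 1 log2 unit in each. They were 1.81, 1.45 and 1.02 for MMP2, 1.97, 1.58 and 1.14 for PCOLCE on probe set A, and 0.84, 0.63 and 0.60 for LOX. On these 3 probe sets the intact males lay within 0.23 to 0.83 log2 units of each other, against 1.74 to 2.18 for CTSK, TIMP1 on A and TIMP2 on B. This grouping was made after the values were seen and carries no test. Intact male 1 also had the highest actin ratio of the 9 cattle arrays, 1.48, whose part in its values was not tested.

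Summed intensities of the fibroblast and macrophage markers were also higher in intact males than in the other cattle. The part of any marker list in the results was not tested. Of the 12 fibroblast markers, all tested, 7 were lower in castrated and 10 in female against intact males. Their summed intensity lay between 17005 and 18414 in castrated males and between 13132 and 16258 in females, against 40563 to 54885 in intact males, and their median log2 difference from castrated and female cattle was 1.70, 1.67 and 1.00 in intact males 1, 2 and 3. The collagen chains COL1A1, COL1A2 and COL3A1 are 3 of these markers, and PDGFRA and THY1 did not pass in either comparison. Of 17 macrophage markers 13 were tested: 0 passed in castrated against intact males in limma's test, though 13 had an unadjusted p under 0.05, and 7 were lower in females. Their summed intensity lay between 2288 and 3274 in castrated males and between 1066 and 2186 in females, against 4725 to 28846 in intact males, with median log2 differences of 3.62, 1.47 and 0.88 in intact males 1, 2 and 3. CD68 and CD14, named after their values were seen, were at -3.02 and -2.83 in castrated and -3.60 and -3.41 in female against intact males. The medians of the 13 markers were -1.66 and -2.39. Of other cell types, 9 muscle fibre, 5 endothelial, 7 smooth muscle and pericyte, 5 adipocyte, 3 osteoclast and 1 blood cell markers were tested, and 0 of them passed in either comparison in limma's test, with 1 at an unadjusted p under 0.05 in castrated and 5 in female against intact males. In a bulk sample, fewer cells of a type and less RNA per cell cannot be told apart.

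**Figure D4:**
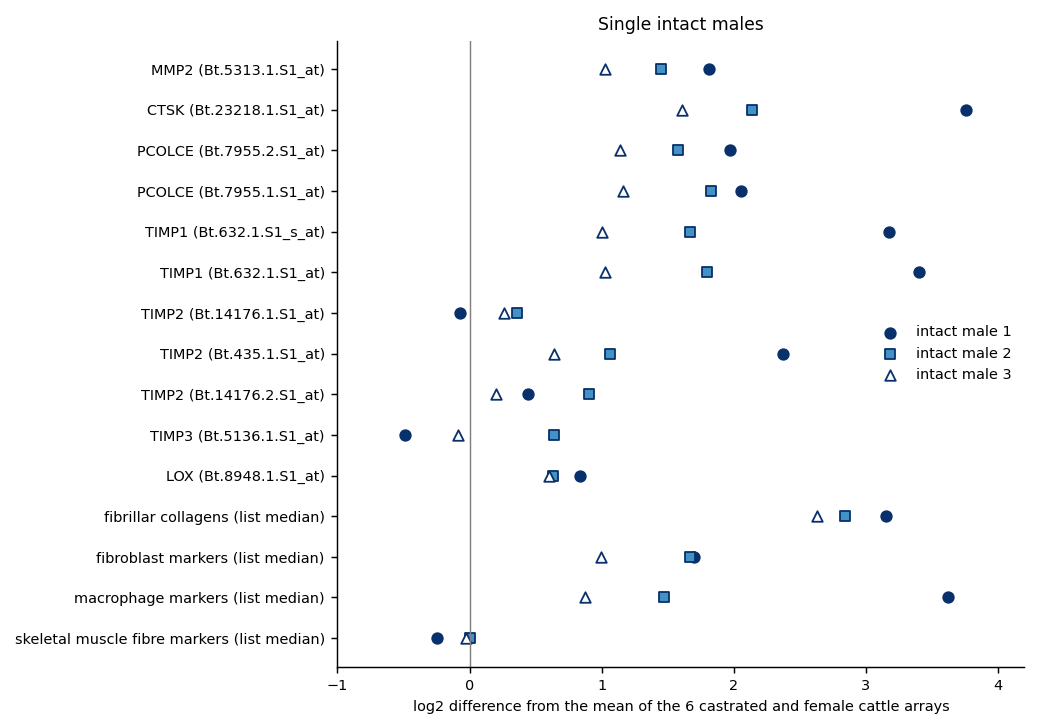
Log2 difference of each intact male from the mean of the 6 castrated and female cattle, for the 11 probe sets and the medians of 4 marker lists. Each symbol is 1 array. Intact male 1 stands apart for CTSK, TIMP1, TIMP2 on Bt.435.1.S1_at and the macrophage markers (3.62), while for MMP2, PCOLCE, LOX and the fibrillar collagens the 3 animals lie within 1 log2 unit.

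Cathepsin K is best known from osteoclasts, so the osteoclast genes were read beside it. Of 9 listed genes 4 had a probe set and 3 (ACP5, MMP9 and NFATC1) were tested. Tartrate-resistant acid phosphatase (ACP5) differed by -1.27 in castrated and -1.40 in female against intact males (adjusted p = 0.246 and 0.149). Gelatinase B (MMP9) differed by 0.09 and -0.29 (adjusted p = 0.754 and 0.205). None of the 3, NFATC1 included, passed. Their median difference was -0.24 in castrated and -0.52 in female against intact males. At an unadjusted p under 0.05 in limma's test, 2 were lower in females and 0 in castrated males. Their summed intensity was 2187, 574 and 543 in intact males 1, 2 and 3, against 353 to 496 in castrated and female cattle. The median log2 difference from these cattle was 0.39, 0.41 and 0.11 in intact males 1, 2 and 3.

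The substrates changed by more than most of the enzymes. COL1A1 averaged 500.4 ± 54.8 in castrated males, 482 ± 96.3 in females and 3981 ± 1122 in intact males (SD, n = 3 each). Against intact males the log2 fold changes in castrated males were -2.92 for COL1A1, -2.76 for COL1A2 and -1.93 for COL3A1, and in females -2.99, -3.18 and -2.26, and all 6 passed. To test whether a gene changed by another amount than the collagens, the mean log2 value of these 3 chains was subtracted on each array and the fit repeated. In castrated against intact males 9 of the 11 probe sets were then higher, where 99.4% of all probe sets were, and in females 8 of 11, where 99.1% were, so that the count itself says little. The probe sets that did not pass, and so were not shown to change by another amount, were of CTSK and TIMP1. CTSK differed from the collagens by 0.36 (95% confidence interval -0.39 to 1.12, adjusted p = 0.326) in castrated and -0.02 (-0.77 to 0.73, adjusted p = 0.958) in female against intact males. TIMP1 on probe set B differed by 0.70 (-0.03 to 1.44, adjusted p = 0.0592) and 0.50 (-0.24 to 1.23, adjusted p = 0.174). On probe set A TIMP1 passed in castrated males (0.78, adjusted p = 0.0315) and not in females (0.67, adjusted p = 0.061). That castrated call was lost in 5 of 17 alternative settings, with adjusted p up to 0.219. MMP2 was lowered less than the collagens, by a difference of 1.28 (SE 0.27, adjusted p = 0.000123) in castrated and 1.21 (SE 0.27, adjusted p = 0.000229) in female cattle. For PCOLCE on probe set A this difference was 0.91 (SE 0.28, adjusted p = 0.00368) and 1.31 (SE 0.28, adjusted p = 0.000112). All of these differences share the collagen readings of the same arrays, which also enter the spread that limma shares between probe sets. The SEs and adjusted p of this fit can therefore overstate the evidence for a single gene.

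The wider pathway was read from 56 other genes of collagen folding, processing, cross-linking and breakdown, of which 37 had a probe set and 28 were tested. In castrated against intact males 2 of the 28 were lower and 0 higher, where 0.84% and 0.625% of all probe sets were, with a median of -0.45. Fibroblast activation protein (FAP), a surface protease that cuts gelatin, was at -2.55 (SE 0.36, adjusted p = 0.0152), and the oxidase LOXL1, a relative of LOX, at -1.84 (SE 0.37, adjusted p = 0.0472). In females against intact males 7 were lower and 0 higher, where 3.37% and 2.12% of all were, with a median of -0.83. These were FAP (-2.72, adjusted p = 0.0106), LOXL1 (-2.44, adjusted p = 0.0144), the lysosomal protease CTSS (-2.49, adjusted p = 0.02), the collagen chaperone SERPINH1 (-1.38, adjusted p = 0.0386), the prolyl isomerase PPIB, the prolyl hydroxylase chain P4HA3 and the lysyl hydroxylase PLOD2. Of females against castrated males 0 of 28 passed in limma's test, with 3 at an unadjusted p under 0.05.

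Yak and buffalo were compared with the mean of castrated and female cattle, whose arrays both comparisons share. PCOLCE and MMP2 were lower in both species, and so was TIMP2 on probe set A. In yak 4 of 11 probe sets passed as lower and 0 as higher, where 11.6% of all probe sets passed as lower and 10% as higher. In buffalo 4 passed as lower and 0 as higher, where 26.5% and 21.7% of all did. The buffalo count is thus near the share of all probe sets, and both medians of the 11, -0.48 in buffalo and -0.21 in yak, were below that of all, -0.02. The actin ratios given above were higher in both species than in castrated and female cattle. Of the 12 fibroblast markers 7 were lower in yak and 10 in buffalo, with summed intensities of 6609 to 10044 in buffalo and 9319 to 10532 in yak, against 13132 to 18414 in castrated and female cattle. Of the 13 macrophage markers 3 were lower in buffalo and 0 passed in yak, with summed intensities of 1134 to 1469 in buffalo and 1474 to 1583 in yak, against 1066 to 3274. Of 5 adipocyte markers, 2 were lower and 2 higher in buffalo and 3 were lower in yak, with summed intensities of 2424 to 5065 in buffalo and 536 to 1152 in yak, against 2056 to 4796. Of 9 muscle fibre markers, 5 were lower and 1 higher in buffalo and 2 were lower in yak, with summed intensities of 106007 to 112858 in buffalo and 114657 to 124294 in yak, against 124825 to 131361. Among the remaining lists, 2 of 3 osteoclast genes were higher in buffalo and 1 was lower in yak, 2 of 7 smooth muscle and pericyte markers were lower in buffalo and 1 in yak, and 1 of 5 endothelial markers was lower in buffalo. The part of these markers in the differences was not tested.

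PCOLCE set the species apart most. On probe set A buffalo had intensities of 118, 139 and 210.2 and yak 149, 197 and 183, against 579 to 780.2 in castrated and female cattle, and on B buffalo had 73.8, 74.3 and 102 and yak 101, 108 and 117, against 183 to 291. Every yak and buffalo lay below every castrated and female animal on both. Here and in the species paragraphs below, lack of overlap carries no test. The share of all probe sets without overlap is not given for the species comparisons. The log2 fold change in buffalo was -2.04 on A (SE 0.19, adjusted p = 2.43e-06) and -1.27 on B (SE 0.18, adjusted p = 7.84e-05). In yak it was -1.85 on A (SE 0.19, adjusted p = 4.03e-05) and -0.93 on B (SE 0.18, adjusted p = 0.00288). The log2 value of A minus B within an array was 0.57 to 0.94 in buffalo and 0.50 to 0.78 in yak, against 1.25 to 1.72 in castrated and female cattle. Both probe sets were thus lower in both species, by unequal amounts, whereas A minus B in intact males, 1.29 to 1.52, lay within the range of castrated and female cattle.

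MMP2 had intensities of 117, 139.6 and 175 in buffalo and 189, 266 and 175 in yak, against 283 to 452 in castrated and female cattle. Every yak and buffalo lay below these cattle, and the highest buffalo nearly met the lowest yak. The log2 fold change of MMP2 was -1.19 (SE 0.19, adjusted p = 0.000213) in buffalo and -0.69 (SE 0.19, adjusted p = 0.0201) in yak. The yak call was lost without yak 1 or yak 3, with adjusted p of 0.0874 to 0.0939. CTSK had 173, 431 and 373 in buffalo and 395, 357 and 221 in yak, against 213 to 478. Both species overlapped with cattle, and the differences were -0.07 (95% confidence interval -0.92 to 0.79) in buffalo and -0.02 (-0.88 to 0.84) in yak. LOX had 71.6, 78.5 and 71.4 in buffalo and 63.2, 62.2 and 66.5 in yak, against 50.8 to 79.8, at differences of 0.15 (-0.07 to 0.36) and -0.02 (-0.23 to 0.19). It did not pass, apart from buffalo without female 1 (adjusted p = 0.0461).

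**Figure D5:**
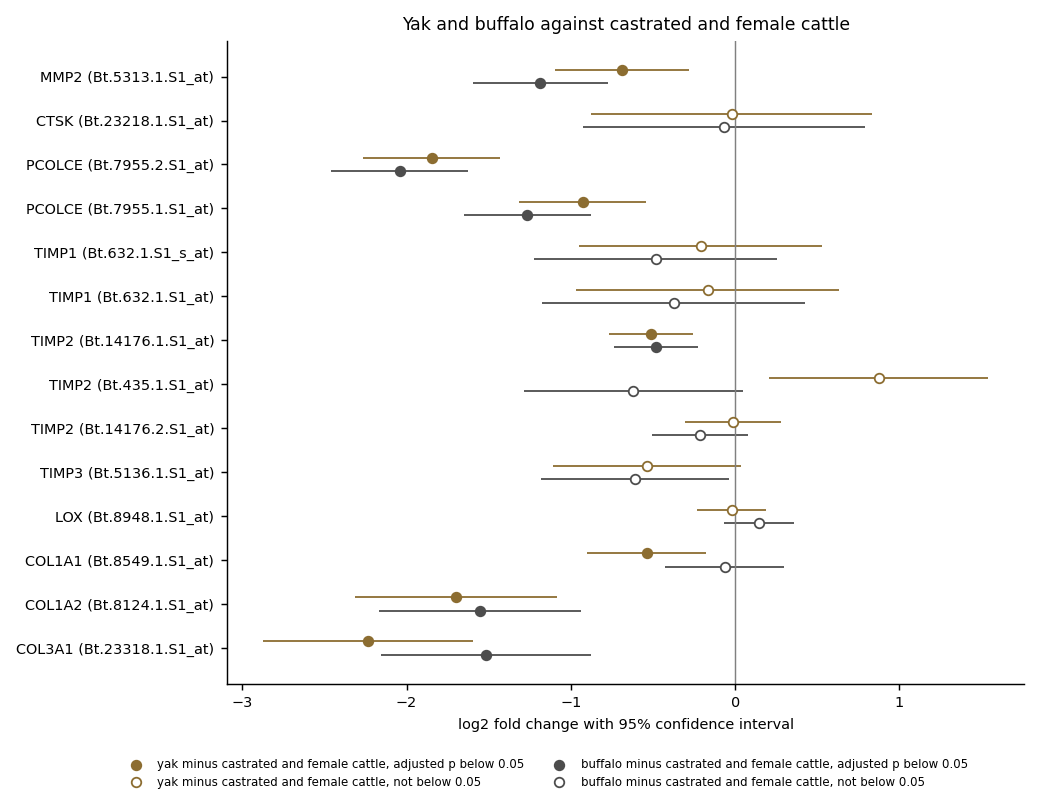
Log2 fold changes of yak and of buffalo against the mean of castrated and female cattle for the 11 probe sets and 3 collagen chains, from the fit on 15 arrays. Points are estimates and lines 95% confidence intervals, and filled points passed (adjusted p under 0.05). PCOLCE, MMP2 and TIMP2 on Bt.14176.1.S1_at are filled in both species, and TIMP2 on Bt.435.1.S1_at lies on opposite sides of 0 in yak (0.87) and buffalo (-0.62), neither of which passed.

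TIMP2 gave the one difference between buffalo and yak that passed among the 7 genes. On probe set B buffalo had intensities of 580.3, 428 and 632 and yak 2087, 1687 and 1055, against 699.8 to 998 in castrated and female cattle. Yak lay above and buffalo below all 6 of these cattle. Buffalo differed from yak by a log2 fold change of -1.49 (SE 0.36, adjusted p = 0.00461), which was the only one of the 11 probe sets that passed, where 22.7% of all passed as lower and 19.5% as higher in buffalo. Against castrated and female cattle the differences of 0.87 in yak (SE 0.31, adjusted p = 0.06) and -0.62 in buffalo (SE 0.31, adjusted p = 0.114) did not pass. The yak difference passed without yak 3 (1.15, adjusted p = 0.0346), intact male 1 (adjusted p = 0.00722) or intact male 3 (adjusted p = 0.033), and the buffalo difference without intact male 1 (adjusted p = 0.0199). Intact males entered these fits only through the common spread.

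Probe set A of TIMP2 was lower in both species. It had intensities of 1841, 1739 and 1448 in buffalo and 1622, 1537 and 1728 in yak, against 2072 to 2638 in castrated and female cattle, with no overlap. The log2 fold changes were -0.48 in buffalo (SE 0.12, adjusted p = 0.00461) and -0.52 in yak (SE 0.12, adjusted p = 0.00824). The buffalo difference was -0.21 after quantile normalisation and no longer passed (adjusted p = 0.243). Within arrays, A minus B was 1.64, 1.98 and 1.18 in buffalo, and -0.36, -0.13 and 0.70 in yak, against 1.04 to 1.66 in castrated and female cattle. Only in yak did the whole group lie apart from these cattle. On probe set C buffalo had 121, 119 and 117 and yak 141, 143 and 132, against 114 to 157, and neither species passed.

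TIMP1 and TIMP3 did not pass in either species, apart from the settings named here. TIMP1 on probe set A had intensities of 166, 207 and 235 in buffalo and 219, 296 and 229 in yak, against 239.8 to 431 in castrated and female cattle. Buffalo lay below all 6, at a log2 fold change of -0.48 (95% confidence interval -1.22 to 0.25), which passed without intact male 1 (adjusted p = 0.0459). Yak differed by -0.21 (-0.95 to 0.53). TIMP3 had 108, 216 and 187 in buffalo and 125, 223 and 186 in yak, against 167 to 357. Its difference was -0.61 in buffalo (-1.18 to -0.03, adjusted p = 0.0746) and -0.54 in yak (-1.11 to 0.04, adjusted p = 0.167), and the first passed without intact male 2 (adjusted p = 0.0468) and in the fit with the replicate number as a block (adjusted p = 0.0416).

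With intact males included among the cattle, more probe sets passed in buffalo. Against the mean of all 3 cattle groups, 4 probe sets passed as lower in yak, where 15.9% of all did, and 7 without intact male 1 or intact male 3. In buffalo 8 passed as lower, against 4 without intact males in the comparison, where 28.4% of all did, both probe sets of TIMP1 and all 3 of TIMP2 among them. PCOLCE on probe set A then differed by -2.56 in buffalo and -2.37 in yak. COL1A1, by contrast with COL1A2 and COL3A1, did not pass in buffalo against castrated and female cattle (-0.06, 95% confidence interval -0.43 to 0.30), while COL1A2 and COL3A1 differed by -1.55 and -1.52, and in yak the 3 chains differed by -0.54, -1.70 and -2.23, which all passed.

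Of the 28 other processing genes, 11 were lower and 3 higher in buffalo against castrated and female cattle, where 26.5% and 21.7% of all probe sets were, with a median of -0.33. In yak 1 was lower and 0 higher, where 11.6% and 10% of all were, with a median of -0.18. The prolyl hydroxylase chain P4HA1 was at -2.16 in buffalo (SE 0.24, adjusted p = 9.67e-06) and 0.08 in yak (SE 0.24, adjusted p = 0.852). The procollagen export receptor MIA3 was at -1.23 in buffalo (adjusted p = 7.8e-05) and CTSS at -1.86 (adjusted p = 0.000624), whereas P4HA3 was higher, at 3.13 (adjusted p = 0.000197). In yak the gelatinase MMP9 was lower, at -0.76 (SE 0.14, adjusted p = 0.00263), the only one of the 28 to pass. In buffalo against yak 7 were lower and 3 higher, where 22.7% and 19.5% of all probe sets were, with P4HA1 at -2.24 (adjusted p = 3.48e-05). The higher ones were P4HA3 (3.50, adjusted p = 0.000345), MMP9 (1.25, adjusted p = 6.14e-05) and the membrane-type protease MMP16 (0.92, adjusted p = 0.00261).

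Ordered by mean log2 value, MMP2 was lowest in buffalo (7.30), followed by yak (7.80), females (8.32), castrated males (8.66) and intact males (9.92), and only females and castrated males overlapped as neighbours. PCOLCE on probe set A was low in buffalo (7.39) and yak (7.58), which overlapped, higher in females (9.49) and castrated males (9.36), which overlapped too, and highest in intact males (10.99). For CTSK buffalo (8.32), yak (8.37), females (8.06) and castrated males (8.72) each overlapped with the next in order, and all stood clear of intact males (10.89). TIMP1 on probe set A had the same form, with buffalo (7.76), yak (8.03), females (8.05) and castrated males (8.43) below intact males (10.19). TIMP2 on probe set B was lowest in buffalo (9.12) and overlapped between yak (10.61), the second highest group, and intact males (11.10). TIMP3 was at 7.50 in buffalo, 7.57 in yak, 7.83 in females, 8.38 in castrated males and 8.12 in intact males, and all neighbours in order of level overlapped. LOX was at 6.49 in buffalo, 6.32 in yak, 6.31 in females and 6.38 in castrated males, all below intact males (7.03), and buffalo also lay clear of the next lower group, castrated males.

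Likeness over the 9 cattle arrays was measured as the root mean square distance between log2 values centred on each probe set's mean. Among the members, PCOLCE A and B were 0.15 apart and the probe sets of TIMP1 0.11. MMP2 was 0.22 from PCOLCE A and 0.18 from B, and CTSK 0.33 from TIMP1 A and 0.29 from B. For other genes, each member was represented by its brightest probe set. Nearest to MMP2 were ECM1 (0.15), THBD (0.16) and MANBA (0.19), where the median over all probe sets compared was 0.75. Nearest to CTSK were LOC508666 (0.20), MPEG1 (0.29) and LOXL1 (0.29), where the median was 1.34. Nearest to PCOLCE were GPX7 (0.19), FKBP7 (0.20) and SLC52A2 (0.21), and nearest to TIMP1 were LOC512805 (0.13), SCPEP1 (0.21) and CMTM3 (0.21). Nearest to LOX were CST3 (0.10), ACOT9 (0.10) and C1QTNF1 (0.12). TIMP2 on probe set A had SH2D3C (0.06), HOOK2 (0.07) and PPP6C (0.09), where the median was 0.27, and TIMP3 had RBM17 (0.24), MYLK (0.25) and ZNF398 (0.25), where it was 0.46. These distances describe the 9 arrays and carry no test.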

How the data were processed

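Longissimus dorsi RNA was read on 15 bovine Affymetrix arrays, per the labels. The authors deposited 1 linear intensity per probe set and array, for 24128 probe sets, by software and a normalisation not given in the sources used here. Without the 112 controls, values were taken as log2(intensity + 16) with no further normalisation, and 14409 probe sets with a mean above the 40th percentile were tested. Platform annotation gave 1 symbol to 13292 probe sets, several to 86 and none to 10638. Entrez identifiers matched 13263 to current genes, with 0 symbols changed.

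limma 3.58.1, under R 4.3.3, fitted group means (eBayes with a trend, two-sided, Benjamini-Hochberg over all probe sets of a contrast, threshold 0.05), on the 9 cattle arrays for the sexes and on all 15 for the species. With 3 arrays against 3 an exact permutation test cannot go below 0.1. The fit was tested on simulated data. The labels give no batch.

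Named were every probe set of the 7 genes, the 3 collagen chains, up to 4 passing genes of the wider pathway per contrast with the smallest p, and the 3 nearest genes per member; PPIB, PLOD2, P4HA3 in females and the cell type markers named singly were chosen after their values were seen. A gene with several probe sets was represented in lists by the brightest. The members and lists were chosen with earlier results of these data known. No sequence or coordinate was used, since no genome build is named in the sources used here.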

Additional observations from a re-analysis of the deposited data

How the results depend on the processing

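Alternatives were no filter or a filter at the 60th percentile, offsets of 1 and 64, quantile normalisation, centring on array medians, no trend, the replicate number as a block, all 15 arrays for the sexes, and leaving out each array. Of 49 passing fold changes of the members, 905 of 966 alternatives still passed, 61 did not and 0 reversed. The 49 include comparisons with all cattle and those relative to the collagens, which nearly all probe sets passed. In castrated against intact males LOX no longer passed in 11 of 17 alternatives and MMP2 in 7 of 18. PCOLCE no longer passed there in 2 of 18 on A and 3 of 18 on B. In females against intact males TIMP1 lost most, 7 of 18 on each probe set. LOX gave no value with the filter at the 60th percentile. Of 83 counts of passing member probe sets under settings other than a left-out array, 82 were within 1.5 times: the exception was castrated against intact males, with 7 in place of 4 when all 15 arrays shared the spread, through CTSK and both probe sets of TIMP1. That count ranged from 0 to 8 with 1 array left out: 0 without intact male 2 or castrated male 3, 1 without castrated male 2, 2 without castrated male 1 or female 3, and 8 without intact male 3. For females against intact males it was 7 and ranged from 1 (without female 2 or 3) over 3 (without intact male 2) to 9. For yak against all cattle it was 4 and ranged from 4 to 7.

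Over all probe sets, 211 passed in castrated against intact males and 718 with all 15 arrays (41 to 995 with 1 array left out), 792 and 1911 in females against intact males (77 to 2194), and 3 in females against castrated males, where alternatives gave 0 to 10. Without a filter 10944 in place of 6942 passed in buffalo against castrated and female cattle and 11929 in place of 7400 against all cattle. Leaving out yak 1 or 2 gave 1656 and 1774 in place of 3118 in yak against castrated and female cattle, and 2281 and 2514 in place of 4196 against all cattle. Relative to the collagens, 14332 in castrated and 14294 in female cattle became 23937 and 23904 without a filter and 9550 and 9523 at the 60th percentile, where fewer were tested. Other causes were not tested.

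The labels give no pairing by replicate number. Deviations of same-numbered arrays correlated between -0.33 and 0.15, with 6 of 30 pairs over 0.1, against 11 of 60 pairs of other numbers. Within cattle 3 of 9 same-numbered pairs were over 0.1, against 1 of 18 pairs of other numbers. No test of pairing was made. With the replicate number as a block, 4 member probe sets passed in castrated and 7 in female against intact males, 0 in females against castrated males, and 5 in yak, 5 in buffalo and 1 in buffalo against yak. TIMP3 passed in buffalo (adjusted p = 0.0416) and TIMP2 on probe set B in yak (adjusted p = 0.0479) with it and not without it when all arrays were kept.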
